A study of Mus musculus with 7 samples.

Results

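Matrix metalloproteinases (MMPs) and their tissue inhibitors (TIMPs) were examined in macrophages sorted from the regenerating sciatic nerve. The set was chosen by gene symbol, with earlier results of these data known. It holds 7 MMP genes (Mmp8, Mmp9, Mmp12, Mmp13, Mmp14, Mmp19 and Mmp27) and 3 TIMP genes (Timp1, Timp2 and Timp3). These are 10 of the 23361 genes listed, and all 10 passed the filter on low counts that left 12858 genes for testing. The left sciatic nerve of BALB/cJ mice, with no genetic alteration, was cut and sutured at once into an empty nerve conduit. Macrophages were sorted from the tissue that bridged the gap 5, 14 or 28 days later, after enzymatic digestion, as cells without lineage markers and positive for F4/80, CD14, CD11b and CD16/32. Day 5 had 3 libraries, day 14 had 2 and day 28 had 2, all from injured nerve, and no library of uninjured nerve or blood monocytes was analysed here. The series description calls the libraries independent biological replicates but does not say whether each came from 1 mouse or several, so p-values measure the spread between these libraries.

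MMPs are zinc-dependent endopeptidases that cut collagens, elastin, laminin and other matrix proteins, as well as chemokines, cytokines and cell surface receptors. Most are secreted as inactive precursors whose propeptide has to be removed, and some are anchored in the plasma membrane. TIMPs bind the active site of MMPs and block them, and in injured nerve the balance between proteases and inhibitors bears on breakdown of the blood-nerve barrier, clearance of myelin and the growth of axons through new matrix.

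Between days 5 and 28 the MMP genes went in opposite directions while no TIMP gene passed the test. Mmp12 (macrophage elastase) and Mmp19 increased, by 18.2-fold and 3.09-fold in mean FPKM, and Mmp8, Mmp9, Mmp13, Mmp14 and Mmp27 decreased. FPKM is the number of fragments mapped to a gene, divided by transcript length and by library size, so it can be compared between genes. Mean FPKM of Mmp12 over the 2 or 3 libraries of a day was 29.2 ± 12.4 (SD, n = 3) at day 5, 144 ± 151 (n = 2) at day 14 and 532 ± 143 (n = 2) at day 28. Mmp12 was thus the sixth of the 10 genes in mean FPKM at day 5 and the first at day 28. In bulk RNA, fewer cells of a kind and less RNA per cell cannot be told apart.

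Of the 10 genes, 4 lie in the MMP gene cluster of chromosome 9, which holds 10 MMP genes over 427 kb (chr9:7272514-7699585, GRCm38, the assembly also called mm10). In order along the plus strand these 4 are Mmp13, Mmp12, Mmp8 and Mmp27. Of these 4, Mmp12 rose over time and the other 3 fell. The promoters of these 4 are therefore shown from 250 bases before to 50 bases after the transcription start given by RefSeq (GRCm38.p6, plus strand). Capitals mark matches to the letters of 2 motifs long studied in MMP promoters, AP-1 (TGANTCA) and PEA3 (AGGAAG, or CTTCCT where it reads on the other strand).
Mmp13, chr9:7272264-7272563: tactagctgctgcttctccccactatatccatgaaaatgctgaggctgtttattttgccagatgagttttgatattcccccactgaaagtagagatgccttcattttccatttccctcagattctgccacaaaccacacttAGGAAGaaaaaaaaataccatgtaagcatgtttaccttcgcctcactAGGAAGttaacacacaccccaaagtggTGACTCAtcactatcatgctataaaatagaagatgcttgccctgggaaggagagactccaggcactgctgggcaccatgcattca
Mmp12, second start, chr9:7347124-7347423: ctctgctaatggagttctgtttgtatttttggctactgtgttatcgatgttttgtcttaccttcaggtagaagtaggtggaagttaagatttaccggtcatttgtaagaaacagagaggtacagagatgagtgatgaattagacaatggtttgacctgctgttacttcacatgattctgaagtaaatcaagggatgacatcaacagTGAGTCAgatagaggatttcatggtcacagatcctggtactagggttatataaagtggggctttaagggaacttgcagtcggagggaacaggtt
Mmp8, chr9:7558179-7558478: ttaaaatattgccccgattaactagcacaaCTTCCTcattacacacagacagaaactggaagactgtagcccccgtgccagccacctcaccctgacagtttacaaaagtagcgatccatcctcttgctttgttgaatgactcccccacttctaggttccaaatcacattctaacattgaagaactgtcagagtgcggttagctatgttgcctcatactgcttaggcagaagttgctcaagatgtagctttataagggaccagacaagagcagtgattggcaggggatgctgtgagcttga
Mmp27, chr9:7571146-7571445: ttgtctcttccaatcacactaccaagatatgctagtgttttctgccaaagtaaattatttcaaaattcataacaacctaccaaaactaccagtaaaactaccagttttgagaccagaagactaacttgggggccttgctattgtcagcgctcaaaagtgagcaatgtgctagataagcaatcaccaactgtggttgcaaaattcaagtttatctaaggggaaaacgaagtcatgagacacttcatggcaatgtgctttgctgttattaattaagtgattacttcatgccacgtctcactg

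Mmp13 held the AP-1 letters TGACTCA 35 bases before the start and 2 copies of AGGAAG further upstream. Mmp12 has 2 starts in RefSeq. The second held TGAGTCA 44 bases before it, and the first (chr9:7344147-7344446, not printed) held no AP-1 letters and 1 CTTCCT. Mmp8 had 1 CTTCCT 220 bases before the start, and Mmp27 matched neither motif. RefSeq promoters were found for 8 of the 10 genes, 9 promoters in all, and Mmp9 and Mmp19 are named only. The AP-1 letters were in 2 of these 9 promoters against 7.81% of 32851 mouse promoters of the same length, and the PEA3 letters in 6 of 9 against 35.4%, with no match overlapping another. Mmp12 and Mmp13 both carried AP-1 letters near a start and went in opposite directions over time. A match of letters is a description and not a binding site.

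**Figure D1:**
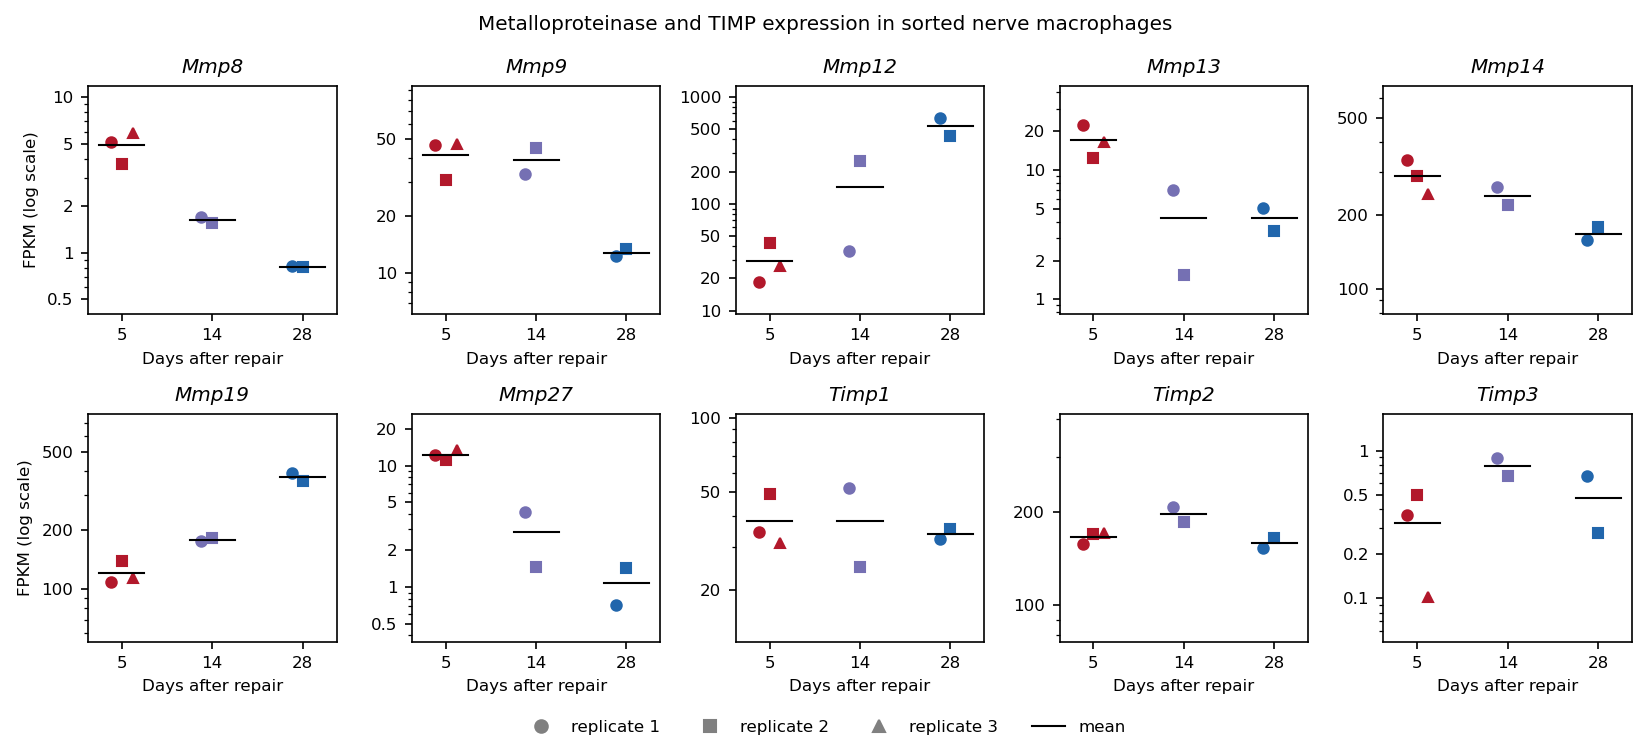
FPKM (log scale) of the 10 genes by day after repair, with 1 point per library, the symbol giving the replicate number and the line the mean of the day. Mmp12 and Mmp19 sit highest at day 28, Mmp8 and Mmp27 sit lower on each later day, and the 2 day 14 libraries lie far apart for Mmp12 and Mmp13.

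The libraries held 18027190 to 35247116 assigned fragments. Of 10 listed macrophage markers 9 were in the table and present in all 7 libraries, with a summed FPKM of 16417 to 22490. Of these 9, 2 (Cd14 and Emr1, which encodes F4/80) were called lower from day 5 to 28, as were 7.51% of all tested genes. The lineage markers used to remove cells included Ly6G for granulocytes and Thy1.2 for fibroblasts, and an antibody to the endothelial marker CD31 is among those the study lists. Among other cell types of the tissue, fibroblast markers (10 genes) summed to 29.9 to 76.4 FPKM at day 5, to 227 and 83.7 in day 14 replicates 1 and 2, and to 37.2 and 58.6 at day 28. Neutrophil markers (10 of 11 listed genes) summed to 333 to 356 FPKM at day 5, 585 to 599 at day 14 and 153 to 293 at day 28, mostly S100a8 and S100a9, with Elane at 0 throughout. Mast cell markers summed to at most 1.33 FPKM. Endothelial markers summed to 16.6 to 29.3 FPKM at day 5, to 15.5 and 8.74 in day 14 replicates 1 and 2, and to 6.20 to 8.60 FPKM at day 28. Schwann cell markers summed to 243 to 295 FPKM at day 5, to 281 and 159.5 in day 14 replicates 1 and 2, and to 154 to 157 FPKM at day 28, most of it Pmp22, while Sox10, which defines these cells, was at most 0.0879 FPKM. The part of these cells in the results below was not tested.

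The first question was which genes differed between days 5 and 14. Of all tested genes, 4.78% were called (edgeR's quasi-likelihood test, Benjamini-Hochberg adjusted p under 0.05), 2.84% higher and 1.94% lower at day 14. Of the 10 MMP and TIMP genes 3 were called, with Mmp19 higher and Mmp8 and Mmp27 lower. The stringent criterion, which adds a 2-fold difference in mean FPKM and a mean of at least 5 FPKM on 1 of the days, was met by Mmp27 alone, against 1.17% of tested genes. The libraries of both days did not overlap for 6 of the 10, against 43.2% of all tested genes. The median log2 fold change of the 10 was -0.04, and over all tested genes it was 0.03. Leaving out day 5 replicate 1, 2 or 3 left 0, 1 and 0 of the 10 called, and 0.493%, 0.83% and 0.407% of all tested genes. Without day 14 replicate 1 there were 5 of the 10, and 13% of all tested genes.

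Between days 14 and 28 edgeR called none of the 10 genes, and 0.0622% of all tested genes, 0.0311% higher and 0.0311% lower at day 28. None met the stringent criterion, which 0.0467% of tested genes met. At an unadjusted p under 0.05 there were 7, against 12.2% of all tested genes, and the 8 genes whose libraries did not overlap compare with 39% of all tested genes. With the DESeq2 test 3 of the 10 were called (Mmp9, Mmp19 and Mmp27), against 2.9% of the genes given an adjusted p. The 2 limma fits called none of the 10 and 0% of all tested genes. Without day 14 replicate 1 edgeR called 2 of the 10 and 0.248% of all tested genes, and without replicate 2 it called 4 of the 10 and 4.7% of all tested genes. Median log2 fold changes were -0.40 for the 10 genes and 0.01 for all tested genes.

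Over the whole interval, from day 5 to day 28, 7 of the 10 genes were called, against 15.2% of all tested genes. As the 10 genes were chosen with earlier results of these data known, the shares set beside them are a description only. Of these 2 were higher (Mmp12 and Mmp19), where 7.74% of all tested genes were, and 5 were lower (Mmp8, Mmp9, Mmp13, Mmp14 and Mmp27), where 7.51% were. Mmp9, Mmp12, Mmp13, Mmp19 and Mmp27 also met the stringent criterion, which 3.52% of tested genes met. The same 7 genes had libraries that did not overlap between the days, as did 51.5% of all tested genes. The median log2 fold change was -0.47 over the 10 genes and 0.03 over all tested genes. Both comparisons with day 5 use the same 3 day 5 libraries, and both with day 14 the same 2 day 14 libraries, so they are not independent of each other.

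**Figure D2:**
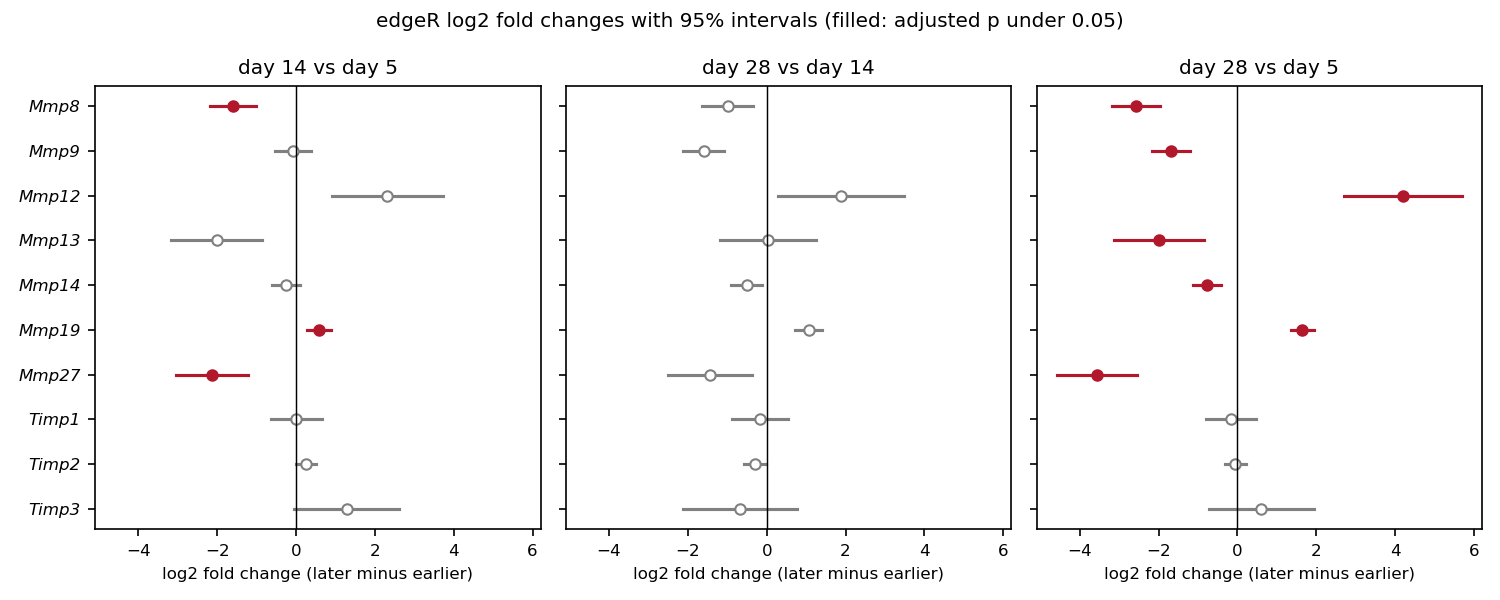
Log2 fold changes (later minus earlier) of the 10 genes from edgeR in the 3 comparisons, with 95% intervals, filled and red where the adjusted p was under 0.05. All 7 MMP genes are filled for day 28 against day 5, none is for day 28 against day 14, and the intervals of the 3 TIMP genes cross 0 except that of Timp2 for day 28 against day 14.

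Mmp8 (ENSMUSG00000005800; chr9:7558456-7568485, plus strand) encodes the collagenase first known from neutrophils, which cuts fibrillar collagen. Its FPKM was 5.16, 3.71 and 5.89 in the day 5 libraries, 1.69 and 1.54 at day 14, and 0.815 and 0.807 at day 28. Every library of an earlier day was above every library of a later day, and the gene rested on few reads, 35 to 291 fragments per library. The log2 fold change was -1.60 (95% interval -2.17 to -1.02, adjusted p = 0.0184, edgeR) from day 5 to 14 and -2.58 (-3.19 to -1.97, adjusted p = 0.00101) from day 5 to 28. The later interval, from day 14 to 28, gave -0.99 (-1.63 to -0.34, adjusted p = 0.215). The day 14 call was lost without day 5 replicate 1 or 3, with log2 fold changes of -1.56 and -1.44. The summed FPKM of the neutrophil markers was highest at day 14. None of the 6 markers tested was called against day 5, where 4.78% of all tested genes were. The part of neutrophils in the Mmp8 result was not tested.

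Mmp13 (ENSMUSG00000050578; chr9:7272514-7283331, plus strand) encodes another collagenase of the set. It was at 22.4, 12.4 and 16.5 FPKM at day 5, at 7.01 and 1.55 FPKM at day 14 and at 5.11 and 3.40 FPKM at day 28. All later libraries were below all day 5 libraries, and the 2 day 14 libraries lay on either side of the day 28 pair. From day 5 to 28 Mmp13 decreased, by 4.02-fold in mean FPKM (log2 fold change -1.98, 95% interval -3.12 to -0.84, adjusted p = 0.0310, edgeR). The log2 fold change at day 14 was -2.01 (-3.18 to -0.85, adjusted p = 0.0562), and from day 14 to 28 it was 0.04 (-1.19 to 1.26, adjusted p = 0.985). The day 28 call was lost when any 1 of the 5 libraries of days 5 and 28 was left out (log2 fold changes of -2.32 to -1.73, adjusted p = 0.0512 to 0.158) and was kept without either day 14 library. Without day 14 replicate 1 the day 14 difference was -3.45 and was called (adjusted p = 0.000311, in a range of 0.000311 to 0.160 over all alternatives).

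Mmp9 (ENSMUSG00000017737; chr2:164940780-164955850, plus strand) encodes gelatinase B, which degrades denatured collagen and type IV collagen of basement membranes. It was expressed at 46.8, 30.8 and 47.5 FPKM at day 5, 32.9 and 45.2 FPKM at day 14, and 12.3 and 13.4 FPKM at day 28. Days 5 and 14 overlapped, and both day 28 libraries were below all others. The decrease from day 5 to 28 was 3.24-fold in mean FPKM (log2 fold change -1.69, SE 0.22, adjusted p = 0.00215, edgeR). At day 14 its log2 fold change against day 5 was -0.08, with an interval from -0.54 to 0.37 (adjusted p = 0.838). Between days 14 and 28 it was -1.60 (-2.12 to -1.09), close to the threshold (adjusted p = 0.0514, edgeR). This last difference was called without day 14 replicate 1 (-1.82, adjusted p = 0.0121) and without day 14 replicate 2 (-1.35, adjusted p = 0.00591), and its adjusted p ranged from 4.53e-09 to 0.369 over the alternatives. Mmp9 is also stored in neutrophil granules, and the summed FPKM of the neutrophil markers was lower at day 28 than at day 5 in both libraries. In day 28 replicate 1 S100a8 was at 115 FPKM, within its day 5 values of 101, 105 and 116 FPKM, and in replicate 2 at 41.6 FPKM. Of the 6 markers tested, 1 (Csf3r) was called lower from day 5 to 28, as were 7.51% of all tested genes. The part of neutrophils in the Mmp9 decrease was not tested.

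Mmp12 (ENSMUSG00000049723; chr9:7344381-7369499, plus strand) encodes macrophage elastase, a secreted protease made mainly by macrophages. The day 5 libraries held 18.7, 42.8 and 26.2 FPKM, the day 14 libraries 36.5 and 251 FPKM, and the day 28 libraries 633 and 431 FPKM. Day 14 replicate 1 lay within the range of day 5 and day 14 replicate 2 was at 6.86-fold the value of replicate 1. Both day 28 libraries were above all others. At 83373 and 28238 fragments, Mmp12 was also the most deeply counted of the 10 genes in the day 28 libraries. The log2 fold change from day 5 to 28 was 4.20 (95% interval 2.71 to 5.69, adjusted p = 0.00485, edgeR), and leaving out single libraries kept it between 3.89 and 4.58. From day 5 to 14 it was 2.31 (0.90 to 3.72, adjusted p = 0.0657) and from day 14 to 28 it was 1.89 (0.30 to 3.48, adjusted p = 0.334). The interval in which Mmp12 was called turned on the day 14 libraries. Without day 14 replicate 1 the change from day 5 to 14 was 3.12 (adjusted p = 0.000198), and without replicate 2 it was 0.33 (adjusted p = 0.712), which were the lowest and highest adjusted p over all alternatives. The changes from day 14 to 28 were 1.08 (adjusted p = 0.343) without replicate 1 and 3.87 (adjusted p = 0.000908) without replicate 2, in a range of 0.000908 to 0.766.

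The exons of Mmp12 share 157 bases with those of Mmp1b on the opposite strand, and Mmp1b was given 0 to 16 fragments per library. Between the 2 day 14 libraries Mmp13 differed by 4.53-fold and Mmp27 by 2.84-fold, both higher in replicate 1, where Mmp12 was lower. Timp1 differed by 2.09-fold. Over 7613 genes with a mean of at least 5 FPKM the median fold between these 2 libraries was 1.14 and the 95th percentile 1.79. These 2 values come from log2(FPKM + 1), whereas the folds of single genes are plain FPKM ratios, which are larger at low FPKM. Mmp12, Mmp13, Mmp27 and Timp1 were all above that percentile. Fibroblast, Schwann cell and endothelial markers were also higher in replicate 1, as given above, and their part in these differences was not tested.

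Mmp14 (ENSMUSG00000000957; chr14:54431612-54445364, plus strand) encodes MT1-MMP, a membrane-anchored collagenase that also activates the precursor of gelatinase A. Its FPKM was 337, 289.8 and 244 at day 5, 261 and 219 at day 14, and 158 and 179 at day 28. The day 14 libraries overlapped with day 5, and both day 28 libraries were below all others. Mmp14 decreased 1.72-fold in mean FPKM from day 5 to 28 (log2 fold change -0.77, SE 0.16, adjusted p = 0.0146, edgeR), less than 2-fold and so outside the stringent criterion. The log2 fold changes were -0.26 (-0.62 to 0.09, adjusted p = 0.344) from day 5 to 14 and -0.51 (-0.90 to -0.12, adjusted p = 0.279) from day 14 to 28. The call was lost without day 5 replicate 1, day 5 replicate 2 or day 28 replicate 1 (adjusted p = 0.0503, 0.0501 and 0.113). Until day 14 it had the highest mean FPKM of the 10 genes.

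Mmp19 (ENSMUSG00000025355; chr10:128790910-128800824, plus strand) encodes a secreted MMP that cuts basement membrane components. It was at 109, 139 and 114 FPKM at day 5, 176 and 182 FPKM at day 14, and 390 and 357 FPKM at day 28. The 3 days did not overlap, and the libraries of a day were close to each other. Mmp19 increased from day 5 to 14 (log2 fold change 0.59, 95% interval 0.28 to 0.89, adjusted p = 0.0430, edgeR) and from day 5 to 28 (1.65, 1.35 to 1.95, adjusted p = 0.000541). Between days 14 and 28 the log2 fold change was 1.06 (0.73 to 1.40, adjusted p = 0.0514). The day 14 call was lost without any 1 of the day 5 libraries, day 14 replicate 2 or either day 28 library, with log2 fold changes of 0.52 to 0.70. It was kept without day 14 replicate 1. The 2 limma fits and the fit on the 2 days alone lost it too. Between days 14 and 28 the difference was called without day 14 replicate 1 (1.03, adjusted p = 0.0470) and without replicate 2 (1.10, adjusted p = 0.00526), in a range of 2.04e-08 to 0.323 over the alternatives.

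Part of the reads of Mmp19 may not have been kept apart from those of a neighbour. The last exon of Mmp19 and the last exon of Tmem198b, on the opposite strand, share 789 bases (chr10:128800036-128800824), which are 22.3% of the exonic bases of Mmp19 and 23.5% of those of Tmem198b in GENCODE M21. Strand use in the counting is not given in the sources used here, so it is not known whether fragments in the shared stretch were kept apart. Tmem198b was at 49.2, 67.6 and 46.2 FPKM at day 5, 78.6 and 80.2 FPKM at day 14, and 164 and 150 FPKM at day 28. Its log2 fold change from day 5 to 28 was 1.55 (adjusted p = 0.00101, edgeR), and the ratio of Mmp19 to Tmem198b FPKM stayed between 2.06 and 2.47 in the 7 libraries. How much of the increase of either gene comes from the other was not tested.

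**Figure D3:**
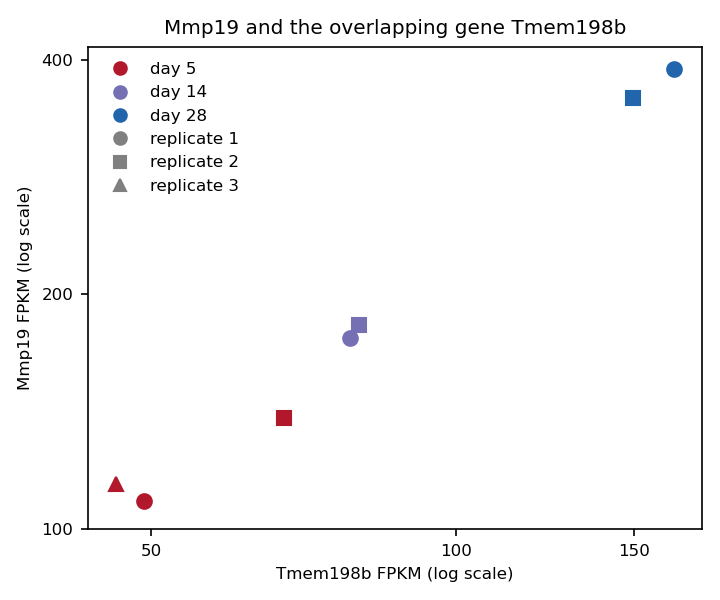
FPKM of Mmp19 against FPKM of Tmem198b (both log scales), with 1 point per library, the colour giving the day and the symbol the replicate. The 7 libraries lie close to 1 line, from 109 and 49.2 FPKM in day 5 replicate 1 to 390 and 164 FPKM in day 28 replicate 1.

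Mmp27 (ENSMUSG00000070323; chr9:7571396-7581885, plus strand) begins 2910 bases beyond the end of Mmp8 and encodes a little studied MMP. It was expressed at 12.2, 11.1 and 13.4 FPKM at day 5, 4.18 and 1.47 FPKM at day 14, and 0.711 and 1.43 FPKM at day 28. No day overlapped with another, although the lower day 14 library and the higher day 28 library were nearly equal. Both day 28 libraries held 40 fragments, against 332 to 434 at day 5. The decrease was 4.33-fold in mean FPKM to day 14 (log2 fold change -2.13, SE 0.41, adjusted p = 0.0268, edgeR) and 11.4-fold to day 28 (-3.57, SE 0.45, adjusted p = 0.00206). The log2 fold change between days 14 and 28 was -1.44 (-2.51 to -0.37, adjusted p = 0.265). The call at day 14 was lost without any 1 of the 3 day 5 libraries (adjusted p = 0.0845, 0.0750 and 0.0869). Without day 14 replicate 1 the change to day 14 was -3.04 (adjusted p = 0.000655) and without replicate 2 it was -1.54 (adjusted p = 0.0372), in a range of 3.36e-06 to 0.111. From day 14 to 28 Mmp27 was called without day 14 replicate 2 (-2.03, adjusted p = 0.00698, in a range of 0.00698 to 0.772).

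Across the 7 libraries Mmp8 and Mmp27, which adjoin each other, had the highest Pearson correlation of any pair of the 10 genes (r = 0.961 of log2(FPKM + 1), n = 7 libraries). Mmp12 and Mmp19, on different chromosomes, came next (r = 0.928), and the lowest was that of Mmp12 and Mmp27 (r = -0.940). These are descriptions over 3 days and share the same libraries. Of the other 6 genes of the chromosome 9 cluster, Mmp3 alone passed the filter on low counts, and Mmp7 and Mmp20 were listed at 0 in all libraries. Mmp3, at 0 to 36 fragments per library, was called higher at days 14 and 28 than at day 5, as described below.

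The 3 inhibitor genes were called in no comparison, which does not show that their levels were equal on the 3 days. Timp2 (ENSMUSG00000017466; chr11:118301069-118355740, minus strand), whose product inhibits most MMPs and also takes part with MT1-MMP in the activation of gelatinase A, was at 158, 170.1 and 171 FPKM at day 5. It was at 207 and 186 FPKM at day 14 and at 153 and 165 FPKM at day 28. Both day 14 libraries were above all others, and days 5 and 28 overlapped. The log2 fold change was 0.25 (-0.0046 to 0.51, adjusted p = 0.215, edgeR) from day 5 to 14, -0.30 (-0.58 to -0.02, adjusted p = 0.381) from day 14 to 28 and -0.05 (-0.31 to 0.21, adjusted p = 0.807) from day 5 to 28. Of the 10 genes Timp2 had the smallest ratio between its highest and lowest library, 1.36-fold.

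Timp1 (ENSMUSG00000001131; chrX:20870166-20874735, plus strand), the inhibitor that forms a complex with the precursor of gelatinase B, was at 34.6, 49.1 and 31.2 FPKM at day 5. At day 14 the libraries held 51.9 and 24.8 FPKM, the highest and the lowest of the 7, and at day 28 they held 32.3 and 35.5 FPKM. All days overlapped. The log2 fold changes were 0.01 (-0.64 to 0.65, adjusted p = 0.992, edgeR) from day 5 to 14, -0.17 (-0.88 to 0.54, adjusted p = 0.869) from day 14 to 28 and -0.16 (-0.81 to 0.48, adjusted p = 0.742) from day 5 to 28. Timp1 lies within Syn1, on the opposite strand, and shares no exonic base with it.

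Timp3 (ENSMUSG00000020044; chr10:86300372-86349506, plus strand), the inhibitor that binds to the matrix and also blocks ADAM proteases, had the lowest mean FPKM of the 10 genes on each day. It was at 0.366, 0.499 and 0.102 FPKM at day 5, 0.888 and 0.676 FPKM at day 14, and 0.675 and 0.278 FPKM at day 28, from 10 to 117 fragments. Both day 14 libraries were above all others, the lower by a narrow margin. The log2 fold change was 1.28 (-0.05 to 2.61, adjusted p = 0.223, edgeR) from day 5 to 14 and 0.61 (-0.73 to 1.95, adjusted p = 0.523) from day 5 to 28. From day 14 to 28 it was -0.67 (-2.11 to 0.77, adjusted p = 0.713). These intervals leave room for changes of more than 2-fold, and 21.3% of the exonic bases of Timp3 overlap Syn3 on the opposite strand, which had 10 to 26 fragments.

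The order of the genes by mean FPKM changed with time. At day 5 Mmp14 (290.2 FPKM) stood above Timp2 (166 FPKM) and Mmp19 (121 FPKM), and none of these 3 overlapped with its neighbour in the order. Mmp9, Timp1, Mmp12, Mmp13 and Mmp27 followed, each overlapping with the next, and Mmp8 and Timp3 were lowest. At day 28 Mmp12 (532 FPKM) and Mmp19 (373 FPKM) stood first, without overlap. Mmp14 (168 FPKM) and Timp2 (159 FPKM) came next and overlapped with each other, and Timp1, Mmp9 and Mmp13 followed without overlap. Mmp27 and Mmp8 overlapped at day 28, and Timp3 was again lowest. At day 14, where Mmp14 was first, the libraries of Mmp12 spanned those of Mmp19 above it and overlapped with those of Mmp9 below it.

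The summed FPKM of the 7 MMP genes was 551, 530 and 467 at day 5, 519 and 702 at day 14, and 1199.9 and 985 at day 28. The sum of the 3 TIMP genes was 193, 220 and 202 at day 5, 260 and 212 at day 14, and 186 and 201 at day 28. The ratio of the MMP sum to the TIMP sum was thus 2.31 to 2.86 at day 5 and 6.46 and 4.90 at day 28, with 1.99 and 3.32 in the day 14 libraries. In the make-up of the MMP sum, Mmp14 held 52.2 to 61.2% at day 5 and 13.2 and 18.1% at day 28. Mmp12 held 3.39 to 8.08% at day 5 and 52.8 and 43.7% at day 28. In day 14 replicate 1 the shares of Mmp14 and Mmp12 were 50.3 and 7.04%, and in replicate 2 they were 31.2 and 35.7%. Mmp19 held 19.7 to 36.2% in the 7 libraries. Timp2 held 77.4 to 87.9% of the TIMP sum throughout.

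**Figure D4:**
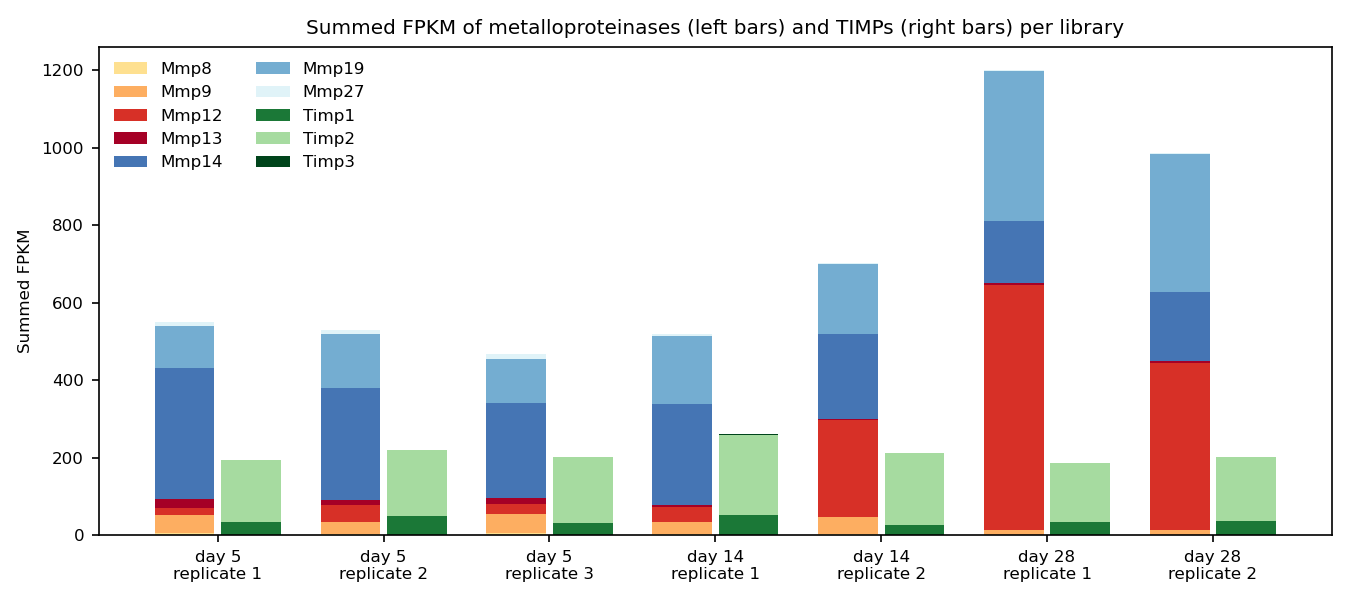
Summed FPKM of the 7 MMP genes (left bar) and the 3 TIMP genes (right bar) in each of the 7 libraries, stacked by gene. Mmp14 makes up most of the MMP bar at day 5 and Mmp12 is the largest segment at day 28, while the TIMP bar, mostly Timp2, stays between 186 and 260 FPKM.

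Mmp14 and Timp2 encode proteins that bind each other, as do Mmp9 and Timp1. The ratio of Mmp14 to Timp2 FPKM was 2.13, 1.70 and 1.43 at day 5, 1.26 and 1.18 at day 14, and 1.04 and 1.08 at day 28. Every earlier library was above every later one between days 5, 14 and 28. The ratio of Mmp9 to Timp1 was 1.35, 0.626 and 1.52 at day 5, 0.633 and 1.82 at day 14, and 0.381 and 0.377 at day 28. The day 28 ratios were below all others. These ratios are of transcripts, and protein, activation and secretion were not measured.

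Of the other MMPs and Timp4, 7 of 17 passed the filter on low counts, and the highest mean FPKM of the 17 was that of Mmp2 (2.02), which encodes gelatinase A. At day 14 against day 5, 2 were called higher and none lower, and from day 5 to 28, 1 was called higher and 1 lower. Of all tested genes 2.84% were called higher and 1.94% lower at day 14, and 7.74% higher and 7.51% lower at day 28. Mmp2 was at 1.33, 0.838 and 0.546 FPKM at day 5, 6.46 and 2.38 FPKM at day 14, and 0.892 and 1.66 FPKM at day 28. Both day 14 libraries were above all others, and the log2 fold change from day 5 to 14 was 2.28 (SE 0.48, adjusted p = 0.0356, edgeR). Mmp2 is abundant in fibroblasts, and the fibroblast markers were highest in the same library, day 14 replicate 1. Their part in the result was not tested. The Mmp2 call was lost without any 1 of the 7 libraries other than day 14 replicate 2.

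Mmp3 (stromelysin-1) had no fragment in the 3 day 5 libraries, 18 and 12 at day 14, and 36 and 12 at day 28. Against a floor of 3 fragments per library its mean FPKM was at least 5.65-fold higher at day 14 (adjusted p = 0.0318, edgeR) and at least 5.75-fold higher at day 28 (adjusted p = 0.0115). Mmp28 (epilysin) was at 0.456, 0.352 and 0.397 FPKM at day 5 and fell to 0.050 and 0.10 FPKM at day 28, with 4 to 23 fragments per library (log2 fold change -2.46, adjusted p = 0.0470, edgeR). The Mmp3 call at day 14 was lost without any 1 of the day 5 or day 28 libraries and the call at day 28 without day 28 replicate 1. The Mmp28 call was lost without any 1 of the 7 libraries. Mmp7, Mmp20, Mmp21 and Timp4 were listed at 0 in all 7 libraries.

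ADAM and ADAMTS proteases are related metalloproteinases, of which the first shed membrane proteins and the second cut matrix proteins. Of 17 listed, 16 were tested. At day 14 against day 5, 1 was called higher and 1 lower, against 2.84% and 1.94% of all tested genes. From day 5 to 28, 2 were higher and 1 lower, against 7.74% and 7.51%. None was called from day 14 to 28, where edgeR called 0.0622% of all tested genes. Adam9 was at 93.8 ± 1.89 FPKM (n = 3) at day 5 and decreased to 64.2 ± 4.32 FPKM (n = 2) at day 14 (adjusted p = 0.0326, edgeR) and 63.3 ± 0.00636 FPKM (n = 2) at day 28 (adjusted p = 0.0115). Adamts10 increased over the whole interval, to 13.8 ± 0.0665 FPKM against 7.37 ± 0.714 FPKM at day 5 (log2 fold change 0.92, adjusted p = 0.00345, edgeR). Adamts1 rose as well, from 0.882 ± 0.405 to 2.22 ± 0.0953 FPKM (adjusted p = 0.0450, edgeR). Adamts2, a procollagen N-proteinase, was higher at day 14 than at day 5 (1.33 ± 0.526 against 0.382 ± 0.0657 FPKM, adjusted p = 0.0366, edgeR), again with its highest value, 1.70 FPKM, in day 14 replicate 1. Leaving out single libraries never lost the Adamts10 call. The Adam9 call was lost without any 1 of the day 5 libraries or day 14 replicate 2 at day 14, and without day 28 replicate 1 at day 28. Adamts1 lost its call without day 5 replicate 2 or 3 or either day 28 library, and Adamts2 without any day 5 library, day 14 replicate 1 or day 28 replicate 2.

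Of 18 genes for activation, inhibition and uptake of MMPs, 15 were tested, and 2 were called lower from day 5 to 14 and 3 from day 5 to 28, with none higher. Of all tested genes 1.94% were called lower and 2.84% higher from day 5 to 14, and 7.51% lower and 7.74% higher from day 5 to 28. Serpinb2 (PAI-2), which inhibits the urokinase-type plasminogen activator, was at 139, 119 and 75.9 FPKM at day 5, 35.95 and 7.31 FPKM at day 14, and 24.5 and 28.8 FPKM at day 28. It was lower than at day 5 in every later library, with log2 fold changes of -2.37 at day 14 (adjusted p = 0.0436, edgeR) and -2.06 at day 28 (adjusted p = 0.0323). Plaur, the receptor of that activator, was lower at day 14 (197 ± 29.7 FPKM) than at day 5 (324 ± 20.8 FPKM), with an adjusted p of 0.0253 (edgeR). Bsg, which encodes the MMP inducer CD147, stood at 223 ± 5.18 FPKM at day 5 and decreased to 159.8 ± 0.183 FPKM at day 28 (adjusted p = 0.0232, edgeR). Cd44, which encodes a hyaluronan receptor that can hold MMP9 at the cell surface, decreased from 396 ± 19.3 to 281 ± 4.64 FPKM over the same days (adjusted p = 0.0344, edgeR). No gene of this list was called from day 14 to 28, where 0.0622% of all tested genes were. The calls of Bsg and Cd44 were lost without any 1 of the libraries of days 5 and 28, and that of Plaur without any 1 of the day 5 libraries or day 14 replicate 2. Serpinb2 lost its day 14 call without any 1 of the day 5 or day 28 libraries, and its day 28 call without day 5 replicate 1 or 2 or either day 28 library.

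Among 7556 tested genes with a mean of at least 5 FPKM, the one whose log2(FPKM + 1) was most like that of Mmp12 over the 7 libraries was Procr (Pearson r = 0.993), which encodes the endothelial protein C receptor and had a mean of 5.73 FPKM at day 5 and 22.6 FPKM at day 28. For Mmp19 it was Tmem198b (r = 0.994), the overlapping gene described above. For Mmp13 it was Ccr1, a chemokine receptor gene (r = 0.993). For Mmp14 it was Ebi3, a subunit of heterodimeric cytokines (r = 0.994). The genes most like the others that were called were Ghdc for Mmp8 (r = 0.997), Lamtor1 for Mmp9 (r = 0.980) and Lgals1 for Mmp27 (r = 0.995). With 7 libraries on 3 days and so many genes to choose from, these values describe likeness only.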

How the data were processed

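RNA of the sorted macrophages was sequenced as single-end reads of polyA+ libraries made with the NEBNext Ultra kit. The authors trimmed reads with cutadapt 1.8, mapped them to mm10 with TopHat2 2.0.13 without new junctions, and quantified genes with Cuffdiff 2.2.1. The deposited values are expected counts (estimated fragments per gene), a scaled signal (the same fragments after 1 library factor, used only as an alternative scaling) and FPKM computed by the authors from it. The strand setting, the annotation version and whether a library came from 1 mouse are not given in the sources used here.

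Expected counts were rounded to whole numbers, genes filtered by day with filterByExpr, scaled with TMM and tested with edgeR 4.0.16 (quasi-likelihood, all 7 libraries in 1 fit, R 4.3.3). Benjamini-Hochberg adjustment ran over 12858 genes, and a gene was called at an adjusted p under 0.05. Standard errors were derived from the F statistic. The study's own test was Cuffdiff's, and its 2-fold and 5 FPKM criteria were kept for the stringent calls. The script was tested on simulated data. Alternatives used DESeq2 1.42.0, RLE and Cuffdiff scaling, no filter, limma 3.58.1 on log2(FPKM + 1) and log2(FPKM + 0.1), 2 days alone, a replicate block, and fits without single libraries.

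Gene coordinates are from GENCODE M21 (GRCm38) and promoters from RefSeq (GRCm38.p6). Protein sequences were not used here. All 10 genes are named, and in the other lists the genes called in at least 1 comparison (up to 6 by mean FPKM) and the other MMP with the highest mean. The 10 genes and the lists were chosen with earlier results of these data known. A further list of cell type markers, beside the 6 in the report, is not reported here.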

Additional observations from a re-analysis of the deposited data

How the results depend on the processing

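With 4 residual degrees of freedom and 2 libraries at days 14 and 28, calls near the threshold moved with single libraries. The count of the 10 genes called was 3 from day 5 to 14, with 5 when no expression filter was used (8.26% of all genes), 0 at an adjusted p under 0.01 and 0 to 5 without single libraries. From day 14 to 28 it was 0, with 3 under DESeq2, 4 with no expression filter (2.25% of all genes) and 0 to 4 without single libraries. From day 5 to 28 it was 7, and 5 to 7 under all alternatives. With a minimum mean of 1 FPKM the stringent criterion from day 5 to 14 was met by 2 genes (Mmp8 and Mmp27), not 1. The causes were not tested.

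The replicate number is not stated to be a batch. Deviations of same-numbered libraries from the day means were correlated over 7556 genes. Between days 5 and 14 the correlation was 0.40 for replicate 1 and 0.047 for replicate 2. Between days 5 and 28 it was -0.042 and 0.044, and for days 14 and 28 it was -0.15. On a day with 2 libraries the deviations are exact opposites, so days 14 and 28 give a single value. These correlations cannot decide whether the libraries were paired. Fits with a replicate block called 0 of the 10 genes from day 5 to 14, where they called 0.0467% of all tested genes, 0 from day 14 to 28 (0% of all tested genes) and 7 from day 5 to 28 (5.72%). A crossed pairing of days 14 and 28, added after seeing the data, gave counts of 2, 2 and 7 from day 5 to 14, day 14 to 28 and day 5 to 28, against 2.78%, 0.49% and 12.3% of all tested genes.

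Sign changes were confined to differences of members that were not called. From day 5 to 14 the log2 fold change of Mmp9 was 0.020 with the replicate block, 0.034 with the crossed block and -0.34 to 0.13 without single libraries. That of Timp1 was -0.0017 with RLE, -0.0011 with Cuffdiff scaling, -0.061 and -0.065 with limma on log2(FPKM + 1) and log2(FPKM + 0.1), -0.15 and -0.17 with the block and the crossed block, and -0.61 to 0.45 without single libraries. From day 14 to 28 Mmp13 was at -0.0077 with DESeq2 and -0.69 to 1.48 without single libraries, and Timp1 at -0.61 to 0.45. From day 5 to 28 the ranges without single libraries were -0.28 to 0.056 for Timp1, -0.11 to 0.0041 for Timp2 and -0.20 to 1.08 for Timp3.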
